A study of Homo sapiens with 9 samples.

Results

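Transcript levels of the metallothioneins, a family of small cysteine-rich proteins, and of MTF1, the transcription factor that induces them, were examined in A498, a human clear cell renal carcinoma line in established use. The 9 genes were taken by name from the count table, which held 27673 genes, and comprised 8 metallothionein genes (MT1A, MT1E, MT1F, MT1G, MT1H, MT1M, MT1X and MT2A) and MTF1. The cells carried 1 of 3 lentiviral short hairpin RNAs and had been selected with puromycin: a control hairpin (shControl), a hairpin against BMAL1 (shBMAL1) or a hairpin against ARNT (shARNT). Each group had 3 libraries, labelled as biological replicates, and a single hairpin per target. The study asked how far ARNT and BMAL1, which both can pair with HIF2α, contribute to HIF2α-driven expression. Whether replicates came from separate infections was not stated, so p-values measure the spread between these libraries.

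Metallothioneins bind zinc, copper and cadmium through clusters of cysteine thiolates, and buffer free metal in the cytosol. When zinc rises, MTF1 binds it through zinc fingers and activates metallothionein genes through short promoter elements called metal response elements (MREs). Glucocorticoids, hypoxia and oxidative stress are further known inducers. In kidney, the proximal tubule is rich in metallothioneins, and cadmium accumulates there bound to them.

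Library totals ranged from 35269851 to 36099075 counts. ARNT was left at 18.8% of its shControl level in shARNT, and BMAL1 (listed as ARNTL) at 30.9% in shBMAL1. Each hairpin also came with a change of the other transcript: ARNT fell to 63.9% of control in shBMAL1 (adjusted p = 1.54e-08) and ARNTL rose to 146% in shARNT (adjusted p = 8.27e-06), so neither group differed from shControl in its target alone. Levels are given in CPM, which scales each count to 1e6 counts of the normalised library size. Of 11 marker genes, 9 passed the filter on low counts, and of these 6 were called lower and 2 higher with shARNT, against 6 lower and 3 higher with shBMAL1. The renal and carcinoma markers PAX8, PAX2, VIM, KRT8, KRT18, CDH2 and CA9 were detected in every group, and all of them apart from KRT18 in shARNT were called in both depletions. PAX8 stood at 36.0, 40.7 and 100 CPM in shControl, shBMAL1 and shARNT, and PAX2, the other renal factor, at 9.85, 6.95 and 6.71 CPM. VIM stood at 5970, 4310 and 812 CPM, and CA9, a HIF target, at 76.4, 30.2 and 1.06 CPM. Of the markers of other lineages, PTPRC (leukocytes) and PECAM1 (endothelium) did not pass the filter. CHGA (neuroendocrine cells) passed it at 1.25, 2.42 and 4.61 CPM and was called higher in both depletions, and ALB (hepatocytes) passed it at 0.352, 0.896 and 0.109 CPM and was called higher in shBMAL1 and lower in shARNT. The part of these shifts in the results here was not tested. Of 15551 tested genes, 41.3% were called lower and 40.5% higher in shARNT against shControl, and 31.5% lower and 31.9% higher in shBMAL1 against shControl, at a Benjamini-Hochberg adjusted p under 0.1. A call in these data is therefore common, and the size of each change is read beside it. With scaling by library size alone, the median change over all genes in shARNT moved from -0.01 to 0.23 (log2), and the higher genes made up 60.5% of the calls in place of 49.6%.

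The family was represented almost wholly by MT2A and MT1X. The 8 genes together held 4805 counts over the 9 libraries, of which MT2A held 4292 and MT1X 489. MT1F held 19 counts, with none in 3 libraries and no more than 6 in any. MT1E held 2 counts in all, MT1A, MT1G and MT1H held 1 each, and MT1M held 0. A count of 0 allows a level of up to 0.0756 to 0.0911 CPM, depending on the library, with 3 counts taken as the floor. These limits cover counting error only. The 6 genes other than MT2A and MT1X did not pass the filter, and no fold change is given for them. Their summed counts were 2, 4 and 3 in the shControl libraries, 6, 0 and 1 in shBMAL1, and 6, 0 and 2 in shARNT, so a difference between groups was not detectable at this depth. Further family genes in the table, MT1B, MT1HL1, MT3 and MT4, had no reads in any library.

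All 8 metallothionein genes lie on chromosome 16 between 56642496 and 56718108 (GRCh37), a span of 75.6 kb, with 7 on the plus strand and MT1G on the minus strand. MT2A (56642496 to 56643409) has 3 exons and a transcript of 401 bases, and MT1X (56716382 to 56718108) has 3 exons and 404 bases. MTF1 lies on chromosome 1 (38275246 to 38325264, minus strand), with 11 exons and a transcript of 7937 bases. MT1X shares its strand and part of its locus with a long noncoding RNA, ENSG00000259827, so reads of the pair could be confused. MTF1 likewise overlaps AL929472.1 on its own strand. The paralogs are alike in sequence. Among the 15 pairs of members with coding sequences of equal length, identity ran from 88.7% to 93.5% with a median of 91.4%. The coding sequences of MT2A and MT1X, from the GENCODE transcripts, are shown because they carry nearly all of the family signal and show how reads of either gene can be told apart. Capitals mark the 14 of 186 bases at which they differ, and each has 20 cysteine codons among 62 codons with the stop.

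MT2A: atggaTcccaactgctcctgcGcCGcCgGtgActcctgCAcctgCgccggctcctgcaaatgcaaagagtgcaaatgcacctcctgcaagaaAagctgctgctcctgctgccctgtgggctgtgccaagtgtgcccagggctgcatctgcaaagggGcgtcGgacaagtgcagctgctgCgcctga

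MT1X: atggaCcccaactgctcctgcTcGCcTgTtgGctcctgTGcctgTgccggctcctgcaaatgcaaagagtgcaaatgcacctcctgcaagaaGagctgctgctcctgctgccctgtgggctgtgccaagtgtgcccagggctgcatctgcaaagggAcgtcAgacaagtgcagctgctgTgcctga

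The differing bases sit mainly near the 5′ end, and most of the middle of the coding sequence is shared. Over whole transcripts, none of the 302 windows of 100 bases in MT2A and none of the 305 in MT1X, 100 bases being the read length stated in the methods of the study, occurred unchanged in another annotated metallothionein transcript. Within 2 mismatches of another family member were 18.5% of the MT2A windows and 13.4% of the MT1X windows. How reads with several matches were counted was not stated, but every value in the member rows was a whole number. The summed counts of the 8 genes are given beside the single genes, since a sum does not depend on how reads were divided among them.

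The family sum fell in both depletions. It had 729, 672 and 804 counts in the shControl libraries, 537, 605 and 570 in shBMAL1, and 299, 294 and 295 in shARNT. The 3 groups did not overlap, and the shARNT libraries were the lowest and nearly equal. Its level was 22.2 ± 1.98 CPM (SD, n = 3, as for all levels here) in shControl, 16.7 ± 0.931 CPM in shBMAL1 and 7.47 ± 0.0667 CPM in shARNT, so that 75.1% and 33.6% of the control level remained. In shARNT the sum changed by -1.57 on the log2 scale (SE 0.0858, adjusted p = 8.89e-13). This and all later adjusted p come from the quasi-likelihood test of edgeR, adjusted by Benjamini-Hochberg over all genes. The value was -0.41 in shBMAL1 (SE 0.0806, adjusted p = 1.87e-04). Both comparisons share the control libraries. Compared directly, the sum was lower in shARNT than in shBMAL1 by a log2 fold change of -1.16 (95% interval -1.34 to -0.98, adjusted p = 1.66e-10). In bulk RNA, a lower level in each cell and fewer expressing cells cannot be told apart.

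**Figure D1:**
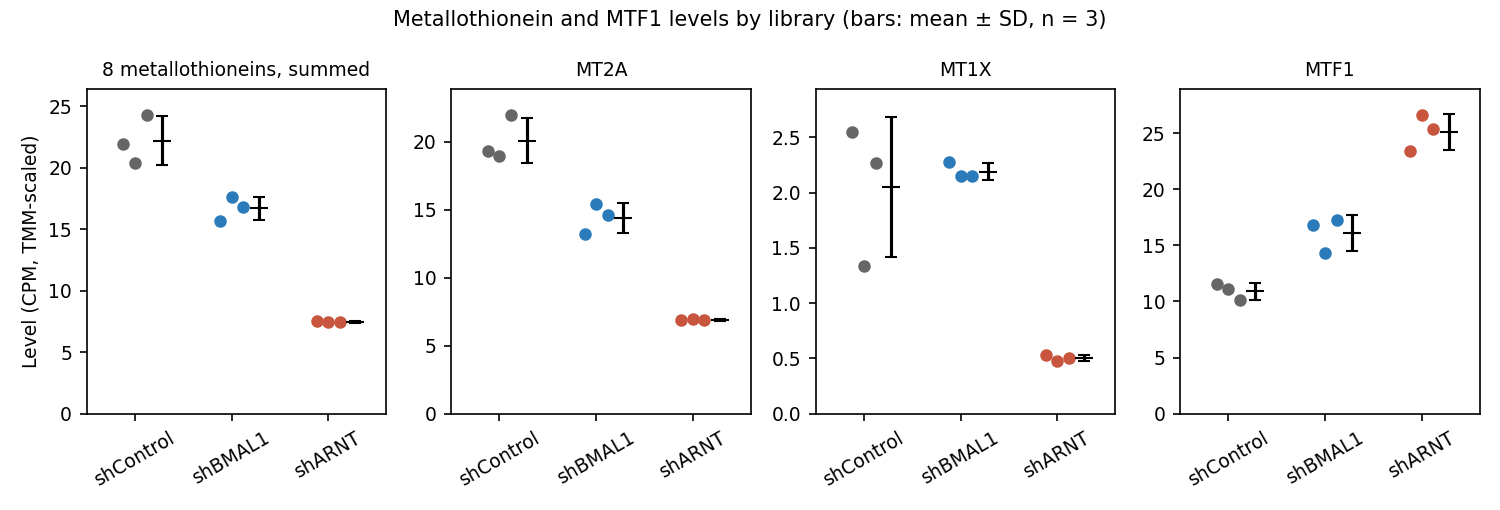
Levels (CPM, linear axis from 0) of the 8 summed metallothioneins, MT2A, MT1X and MTF1 in each library, with the mean and SD of the 3 libraries of a group beside the points. The sum and MT2A step down from shControl to shBMAL1 to shARNT, MT1X is low in shARNT alone, and MTF1 steps up from 10.9 to 16.1 to 25.1 CPM.

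MT2A, the most widely expressed human metallothionein, set the course of the sum. It had 642, 624 and 726 counts in shControl, 453, 531 and 496 in shBMAL1, and 272, 275 and 273 in shARNT. No library of one group reached the range of another. Against 20.1 ± 1.66 CPM in shControl, the level fell to 14.4 ± 1.09 in shBMAL1 and to 6.90 ± 0.0468 in shARNT. The change in shARNT, on the log2 scale, was -1.54 (SE 0.0899, adjusted p = 2.62e-12), which left 34.4% of the control level, and 11.1% of all tested genes fell as far or further. In shBMAL1 it was -0.48 (SE 0.0849, adjusted p = 7.05e-05), which left 71.8%, and 17.4% of all tested genes fell as far or further.

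MT1X, a type 1 isoform, fell in shARNT and was not called in shBMAL1. It had 21, 19 and 20 counts in the shARNT libraries against 85, 44 and 75 in shControl, and its level was 0.505 ± 0.0249 against 2.05 ± 0.637 CPM. The groups did not overlap, although shControl replicate 2 was well below the other control libraries. The log2 fold change of -2.02 (SE 0.271, adjusted p = 1.03e-06) left 24.6% of the control level, and 6.64% of all tested genes fell as far or further. In shBMAL1 MT1X had 78, 74 and 73 counts, within the range of the control libraries. The log2 fold change there was 0.09 with a 95% interval of -0.39 to 0.57 (adjusted p = 0.75). The -0.48 of MT2A lies outside that interval, but its own 95% interval, -0.65 to -0.30, overlaps it. Without shControl replicate 2 the MT1X value was -0.14, and the difference between the genes was not tested. In shARNT against shBMAL1, MT1X was lower by -2.11 on the log2 scale (SE 0.268, adjusted p = 4.9e-07) and MT2A by -1.06 (SE 0.0914, adjusted p = 1.4e-09).

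Of the metallothionein genes tested, 2 of 2 were thus called lower in shARNT against shControl (41.3% of all genes) and 1 of 2 in shBMAL1 against shControl (31.5%). In the direct contrast of shARNT with shBMAL1, 2 of 2 were called lower, where 41.1% of all genes were called lower and 40.1% higher.

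The mix of both genes was followed as a share of the family. MT1X made up 9.18% ± 2.56 of the family counts in shControl, from 6.55% to 11.7% over the libraries. Its share was 13.2% ± 1.19 in shBMAL1 and 6.76% ± 0.281 in shARNT. The shBMAL1 libraries, at 12.2% to 14.5%, lay above all others, and the shARNT libraries, at 6.46% to 7.02%, lay around the lowest control library. These shares were not tested. Levels were also divided by the full transcript length, with no correction for fragment size. Per kb of transcript, MT2A stood at 50.1 ± 4.14 CPM per kb in shControl and MT1X at 5.08 ± 1.58, a ratio of 9.86. The ratio was 6.61 in shBMAL1 and 13.8 in shARNT.

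MTF1 moved the other way from MT2A. It had 387, 364 and 335 counts in shControl, 573, 494 and 588 in shBMAL1, and 926, 1052 and 1008 in shARNT. The groups did not overlap, with shControl lowest and shARNT highest. Its level rose from 10.9 ± 0.748 CPM to 16.1 ± 1.57 CPM in shBMAL1, by 0.56 on the log2 scale (SE 0.0895, adjusted p = 2.11e-05). In shARNT it rose to 25.1 ± 1.63 CPM, by 1.20 (SE 0.0865, adjusted p = 8.39e-11). The level in shARNT was higher than in shBMAL1 by 0.64 (SE 0.0831, adjusted p = 6.61e-07). As background, 40.5% of all genes were called higher in shARNT and 31.9% in shBMAL1. Per kb of transcript, the MT2A level was 36.3 times that of MTF1 in shControl, 17.7 times in shBMAL1 and 5.43 times in shARNT. MT1X stood at 3.68 times the MTF1 level in shControl and at 0.394 times in shARNT. The size of these ratios is rough, since the transcripts differ much in length (401 bases for MT2A and 7937 for MTF1). Transcript counts give no measure of MTF1 protein, its location or its zinc loading.

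**Figure D2:**
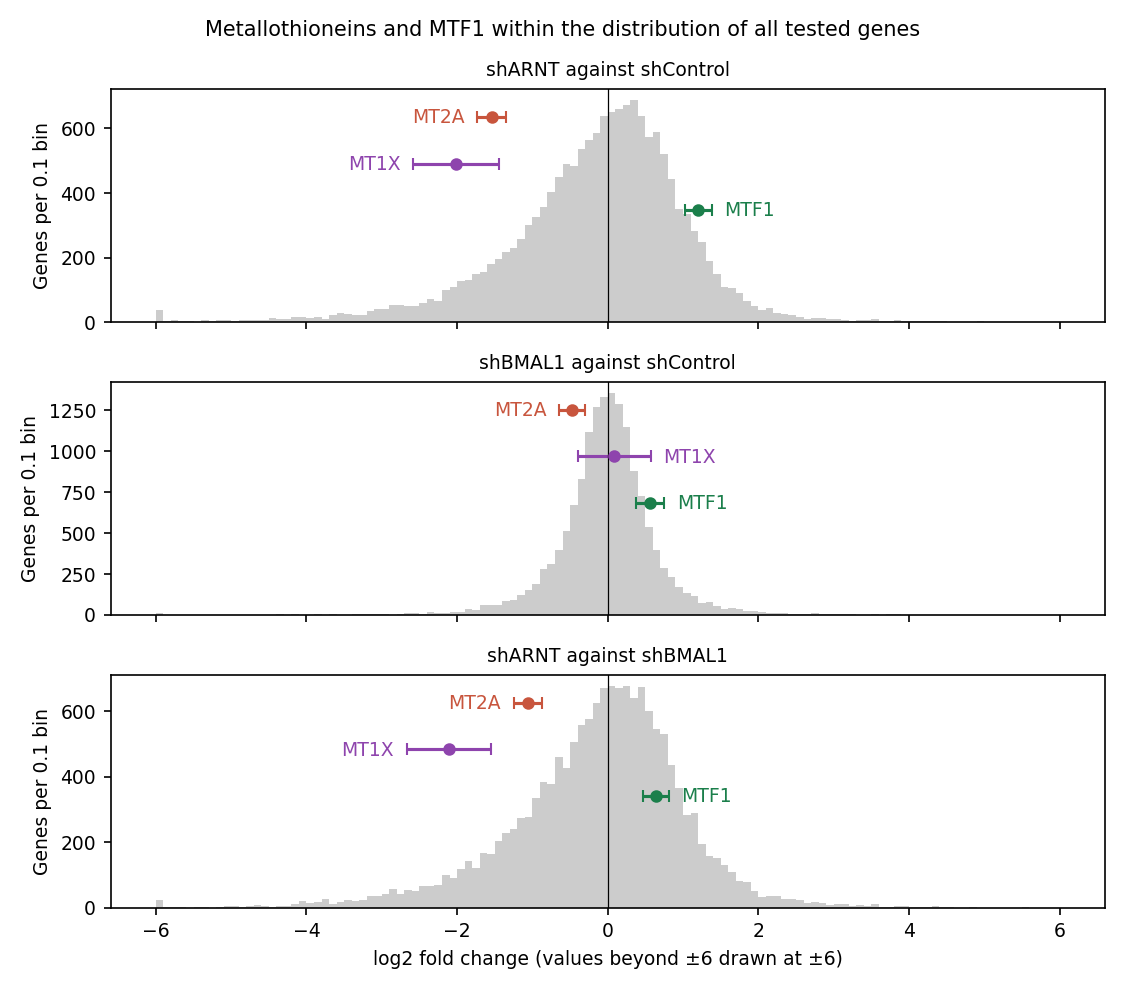
Histograms of the log2 fold changes of all 15551 tested genes in bins of 0.1, with MT2A, MT1X and MTF1 marked at their values with 95% intervals, for each of the 3 contrasts. In shARNT against shControl, MT2A (-1.54) and MT1X (-2.02) lie on the lower side and MTF1 (1.20) on the upper side. There 11.1% of genes were as low as MT2A or lower, 6.64% as low as MT1X or lower, and 8.48% as high as MTF1 or higher. In shBMAL1 against shControl, MT1X (0.09) lies near the centre.

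The promoters of the members were read for the elements through which MTF1 and HIF act. RefSeq promoter windows were matched for 4 of the 9 members, MT2A, MT1X, MT1H and MTF1. MT1A, MT1E, MT1F, MT1G and MT1M had no entry. The 250 bases before the start were searched on both strands for the MRE core (TGCACNC or TGCGCNC), the core of the hypoxia response element (HRE; ACGTG or GCGTG) and the E-box bound by CLOCK-BMAL1 (CACGTG, which contains the first HRE core). The windows of MT2A and MT1X are shown because these genes carried the changes above. Each runs 5′ to 3′ on the plus strand and ends at the base before the start, and capitals mark MRE cores. They lie at chr16:56642246-56642495 for MT2A and chr16:56716132-56716381 for MT1X (GRCh37, by exact match).

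MT2A promoter: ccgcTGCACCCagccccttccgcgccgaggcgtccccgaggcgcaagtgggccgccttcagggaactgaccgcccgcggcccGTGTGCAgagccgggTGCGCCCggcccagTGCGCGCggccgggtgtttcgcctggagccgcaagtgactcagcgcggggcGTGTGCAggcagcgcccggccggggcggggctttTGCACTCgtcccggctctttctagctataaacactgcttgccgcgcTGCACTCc

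MT1X promoter: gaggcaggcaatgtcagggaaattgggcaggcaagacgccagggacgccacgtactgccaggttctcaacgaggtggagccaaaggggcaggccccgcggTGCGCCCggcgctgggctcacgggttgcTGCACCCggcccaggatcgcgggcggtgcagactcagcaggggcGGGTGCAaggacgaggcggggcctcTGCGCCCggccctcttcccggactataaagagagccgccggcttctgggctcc

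The MT2A window held 7 MRE cores and the MT1X window 4, none overlapping another. MT1H, which had a single read in all libraries, held 8, and MTF1 held 0. Among 35116 RefSeq promoter windows of the same length, 24.8% held at least 1 MRE core, 1.6% at least 3 and 0.12% at least 5. MT2A and MT1X each held 1 HRE core, MTF1 held 2 and MT1H held 0, where 43.2% of all windows held at least 1. The HRE core of MT2A, which starts 90 bases before the start, overlaps an MRE core that starts 88 bases before it. No E-box lay in any of the 4 windows, and 6.3% of all windows held one. These matches describe letters in a short window, and binding was not measured here.

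**Figure D3:**
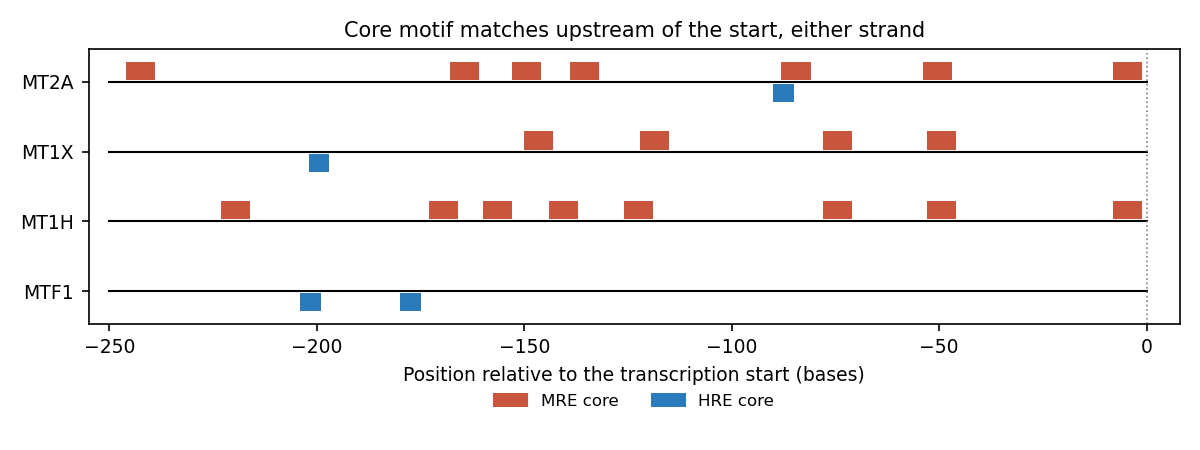
Positions of MRE cores (red) and HRE cores (blue) in the 250 bases before the transcription start of MT2A, MT1X, MT1H and MTF1, in bases from the start and on either strand. MRE cores are spread over the metallothionein windows (7, 4 and 8) and missing from that of MTF1, which holds 2 HRE cores.

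Known MTF1 targets outside the family were compared with the members. Of 8 listed genes, 4 passed the filter, and SLC30A10, SLC40A1, PGF and HAMP did not. SLC30A1, the zinc exporter of the plasma membrane that MTF1 induces, rose in both depletions, unlike MT2A. It rose by 0.30 in shARNT (adjusted p = 3.33e-04) and by 0.25 with shBMAL1 (adjusted p = 0.00238), on the log2 scale, and its level was 45.2 CPM in shControl, 53.9 CPM in shBMAL1 and 55.6 CPM in shARNT. SLC39A10, a zinc importer that MTF1 represses, fell by 1.82 in shARNT (adjusted p = 1.4e-19) and rose by 0.72 in shBMAL1 (adjusted p = 1.45e-12). SELENOW, listed as SEPW1 and encoding a small selenoprotein, fell in both by nearly the same amount in the main fit, with values of -0.48 and -0.47 (adjusted p = 1.54e-07 and 5.45e-07). Over the alternative settings its value ran from -0.51 to -0.24 in shARNT and from -0.52 to -0.41 in shBMAL1. CSRP1, a LIM-domain protein, had values of -0.63 and -0.68 at a low level (1.55 CPM in shControl), with groups that overlapped, and neither call held without shControl replicate 2 (-0.49 and -0.54) or replicate 3 (-0.61 and -0.66). The call was also lost without shARNT replicate 1 (-0.50) or 3 (-0.48) and without shBMAL1 replicate 1 (-0.46) or 2 (-0.52). In all, 3 of the 4 genes were lower and 1 higher in shARNT, and 2 were lower and 2 higher in shBMAL1. These counts pool SLC39A10, which MTF1 represses, with the other targets. Over all tested genes, 41.3% were called lower and 40.5% higher in shARNT, and 31.5% and 31.9% in shBMAL1. With scaling by library size alone, 2 of the targets were lower and 1 higher in shARNT, and 1 was lower and 2 higher in shBMAL1.

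Zinc transporters were called lower more than higher in shARNT, and higher more than lower in shBMAL1. SLC30 proteins export zinc from the cytosol and SLC39 proteins import it. Of 24 genes, 18 were tested, among them SLC30A1 and SLC39A10 of the MTF1 targets above. In shARNT 12 were called lower, 4 higher and 2 were not called, with a median log2 fold change of -0.53 against -0.01 over all tested genes. In shBMAL1 4 were lower, 9 higher and 5 not called, with a median of 0.10. The shares over all genes were 41.3% lower and 40.5% higher in shARNT, and 31.5% and 31.9% in shBMAL1. SLC39A14, an importer of zinc, iron and manganese, was at 121 CPM in shControl, and fell to 19.6 CPM in shARNT (-2.63, adjusted p = 1.03e-17) and to 103 CPM in shBMAL1 (-0.23, adjusted p = 0.00464). SLC30A4 fell in both (-1.89 and -0.72, adjusted p = 1.08e-09 and 3.04e-04). SLC30A3 fell in shARNT (-1.42, adjusted p = 1.07e-07) and had a value of 0.01 in shBMAL1 (adjusted p = 0.973). Whether the lists differ between depletions was not tested.

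Copper handling genes, which serve the other main metal bound by metallothioneins, were split, with a balance in shARNT that depended on the scaling. All 12 were tested, with 5 lower, 5 higher and 2 not called in shARNT, and 3 lower, 5 higher and 4 not called in shBMAL1, and a median of 0.13 in each. Among all genes, 41.3% were lower and 40.5% higher in shARNT, and 31.5% and 31.9% in shBMAL1. The copper importer SLC31A1 fell in shARNT (-1.56, adjusted p = 1.56e-13) and differed by 0.20 in shBMAL1 (adjusted p = 0.0198), a call lost without shBMAL1 replicate 3 (0.12). The copper exporter ATP7A fell in shARNT (-0.38, adjusted p = 3.91e-05) and rose in shBMAL1 (0.65, adjusted p = 3.98e-08). COX11, which delivers copper to cytochrome oxidase, rose in shARNT (0.69, adjusted p = 6.34e-10) and had a value of 0.06 in shBMAL1 (adjusted p = 0.378). SCO2, of the same route, rose in shARNT (0.38, adjusted p = 8.57e-05) and fell in shBMAL1 (-0.66, adjusted p = 4.89e-07).

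Genes of the response to metal and oxidative stress, many of which cadmium induces together with metallothioneins, were mostly higher. All 12 were tested. In shARNT 9 were called higher and 3 lower, with a median log2 fold change of 0.99, and in shBMAL1 9 were higher, 2 lower and 1 not called, with a median of 0.23. Of all genes, 40.5% were called higher and 41.3% lower in shARNT, and 31.9% higher and 31.5% lower in shBMAL1. GCLM, a subunit of the enzyme that makes the glutathione precursor, rose by 1.96 in shARNT and 0.55 in shBMAL1 (adjusted p = 6.07e-18 and 2.1e-08). The chaperone HSPH1 rose by 1.46 and 0.32 (adjusted p = 1.72e-17 and 1.29e-06). HSPA1A and HSPA1B each rose by 1.27 in shARNT, and by 0.21 and 0.18 in shBMAL1 (adjusted p = 3.27e-16, 4.19e-17, 2.84e-04 and 3.26e-04). They are near-identical copies and their separate values are uncertain. HMOX1, the heme oxygenase induced by cadmium, was chosen after its values were seen and fell in both, by 0.29 in shARNT and 0.61 in shBMAL1 (adjusted p = 1.49e-04 and 3.67e-08). Its fall in shARNT depended on the scaling. Before scaling, its counts were 2472, 2515 and 2761 in shARNT and 2630, 2687 and 2603 in shControl, which overlap. With scaling by library size alone, the list held 2 lower genes in shARNT in place of 3, and HMOX1 had the smallest fall of the 3.

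Glucocorticoid response genes were examined because glucocorticoids induce MT2A and MT1X. Of 9 genes, 8 were tested, with 5 lower, 2 higher and 1 not called in shARNT (median -0.59), and 3 lower, 3 higher and 2 not called in shBMAL1 (median 0.14). For all genes the shares were 41.3% lower and 40.5% higher in shARNT, and 31.5% and 31.9% in shBMAL1. NR3C1, the glucocorticoid receptor itself, is counted among the lower genes of both depletions. It stood at 187 CPM in shControl and fell to 62.2 CPM in shARNT (-1.59, adjusted p = 3.33e-17) and 142 CPM in shBMAL1 (-0.40, adjusted p = 2.17e-07). MT2A had the same order of groups, and a link between them was not tested. TSC22D3, a classical glucocorticoid target, fell in shARNT (-1.97, adjusted p = 5.45e-13), and its value of 0.19 in shBMAL1 (adjusted p = 0.0842) was not called without shControl replicate 2 (0.17), shControl replicate 3 (0.17) or shBMAL1 replicate 2 (0.10), nor with the DESeq2 test, without a filter, with a replicate block or with a minimum fold change of 1.5. The phosphatase gene DUSP1 fell in shARNT (-1.56, adjusted p = 2.53e-12), and its value in shBMAL1 was 0.10 (adjusted p = 0.33), called without shControl replicate 1 (0.21). CRISPLD2 rose in both depletions, by 1.70 and 1.74 (adjusted p = 2.47e-08 and 5.78e-08). FKBP5, of the same list, was chosen after its values were seen. It also rose in both, by 0.58 in shARNT and 1.42 in shBMAL1 (adjusted p = 1.58e-06 and 5.67e-12).

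**Figure D4:**
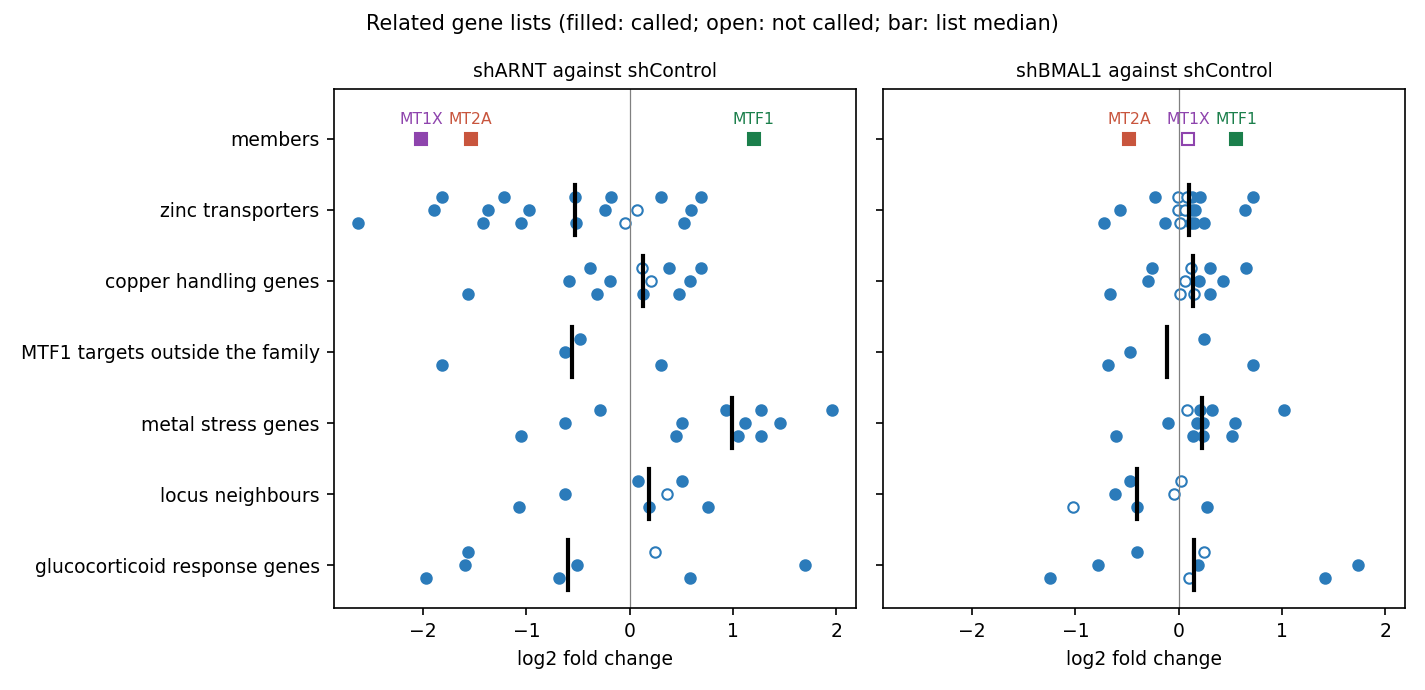
Log2 fold changes of the tested genes of each related list against shControl, in shARNT (left) and shBMAL1 (right) on 1 scale, with filled points for called genes, open points for genes not called, bars for list medians, and MT2A, MT1X and MTF1 as squares. The zinc transporters (median -0.53) and glucocorticoid response genes (-0.59) lie mostly below 0 in shARNT and the metal stress genes (0.99) above it.

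Genes beside the cluster on chromosome 16 went in both directions. Of 11 neighbours, 7 were tested. In shARNT 2 were lower, 4 higher and 1 not called, with a median of 0.19, and in shBMAL1 3 were lower, 1 higher and 3 not called, with a median of -0.40. All genes had 41.3% lower and 40.5% higher in shARNT, and 31.5% and 31.9% in shBMAL1. The cleavage factor gene NUDT21 rose in shARNT (0.76, adjusted p = 2.72e-10) and fell in shBMAL1 (-0.62, adjusted p = 5.67e-08). OGFOD1, a prolyl hydroxylase of a ribosomal protein, rose in shARNT (0.51, adjusted p = 6.97e-09) and had a value of 0.02 in shBMAL1 (adjusted p = 0.695). HERPUD1, of the endoplasmic reticulum stress response, fell in shARNT (-0.63, adjusted p = 3e-11) and rose in shBMAL1 (0.27, adjusted p = 1.69e-05).

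Profiles most like that of the family sum were sought among 11226 other genes whose log2 CPM averaged 2 or more. Likeness was the root mean square difference of centred log2 levels over the 9 libraries, and its median over those genes was 0.732. The 5 nearest were RPL22L1 (0.0661), INPP5F (0.0692), B4GALT2 (0.0786), IPO13 (0.0847) and RPS2 (0.0847). Their log2 fold changes ran from -1.61 to -1.43 in shARNT and from -0.42 to -0.32 in shBMAL1. On the same measure MT2A lay at 0.0472 from the sum of which it is the main part, MT1X at 0.367 and MTF1 at 1.15.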

How the data were processed

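RNA from 9 A498 libraries (3 groups of 3) was sequenced as stranded mRNA libraries with paired reads. The deposited values are expected counts, total reads per gene that the authors exported without normalization. The methods name GRCh37, SeqMan NGen 17 and ArrayStar 17, whereas the submitters' processing notes name hg38 and STAR. Which of these made the table was not settled, and the effect of the choice on the counts, close paralogs included, was not tested. Positions are from GENCODE release 44 on GRCh37. The annotation and the use of strand in counting are not given in the sources used here.

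A value of 0.05 stood for no reads and was set to 0. The counts were rounded, and 43 names on several rows were summed. The edgeR 4.0.16 quasi-likelihood test (R 4.3.3) was fitted to all 9 libraries with the group as the only factor, TMM scaling and filterByExpr (15551 genes), with calls at an adjusted p under 0.1. SE is the fold change over the root of F. The family sum replaced its 8 genes in a second fit. DESeq2 1.42.0, other scalings, filters, sample sets and a minimum fold were alternatives. The computations were tested on simulated data. Levels per kb used the canonical transcript. Members, lists and tests were chosen with earlier results of these data known. Named genes were all members, every MTF1 target, the 4 largest called changes of each other list among genes whose log2 CPM averaged 2 or more, and the 5 nearest profiles, computed with 0.125 CPM added. A gene that this rule selects is not reported here.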

Additional observations from a re-analysis of the deposited data

Results flagged for a closer look

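The effects of the depletions differed for each tested member when shARNT was set against shBMAL1 in the edgeR fit, a contrast of group means that leaves the control mean out. The log2 fold change of shARNT against shBMAL1 was -1.06 for MT2A, -2.11 for MT1X, -1.16 for the family sum and 0.64 for MTF1. All 3 shARNT libraries lay beyond all 3 shBMAL1 libraries in each case. The share of all genes separated in this way was not counted. In this contrast 41.1% of the 15551 tested genes were called lower and 40.1% higher, so a call there was common. ARNT and BMAL1 transcripts were left at 18.8% and 30.9% of shControl by their own hairpins. ARNT was also at 63.9% in shBMAL1 and BMAL1 at 146% in shARNT, so the contrast compares groups that differ in both transcripts. The part of these levels in the differences was not tested.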

How the results depend on the processing

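The falls of MT2A and of the family sum in both depletions, the fall of MT1X in shARNT and the rises of MTF1 kept their direction under every alternative. The sole alternative that ended a call among them was a minimum fold change of 1.5. Under it the shBMAL1 comparison kept 0 metallothionein genes, with the family sum at -0.41 (adjusted p = 1.0), and MTF1 lost its call in shBMAL1 (adjusted p = 1.0) and between the depletions (adjusted p = 0.213). Over all genes that setting left 6965, 2111 and 6831 calls in place of 12722, 9851 and 12630 for shARNT and shBMAL1, each against shControl, and for shARNT against shBMAL1. In the same order of contrasts it left 9, 1 and 8 zinc transporters, 2, 0 and 4 copper handling genes, and 7 metal stress genes in the last contrast and 1 in shBMAL1. It left 1 MTF1 target in each depletion, 2 and 0 locus neighbours, and 4 glucocorticoid genes in shARNT. With scaling by library size alone, copper handling genes in shARNT were 3 lower and 7 higher. Zinc transporters there were 10 lower and 6 higher. In shARNT against shBMAL1, MTF1 targets called numbered 1, with 3 under library size alone, 2 without a filter, and 1 to 2 when single libraries were left out. With no filter, none of the 6 scarce metallothioneins was called.

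Leaving out single libraries gave -1.63 to -1.50 for the family sum in shARNT, -0.47 to -0.34 in shBMAL1 and -1.20 to -1.12 between them. MT1X in shBMAL1 ranged from -0.14 to 0.28, and changed sign without shControl replicate 2. SLC30A3 in shBMAL1, at 0.01, ranged from -0.11 to 0.18 over left-out libraries and rounded to 0.0 with DESeq2 size factors and the DESeq2 test. OGFOD1 in shBMAL1 ranged from -0.01 (without shControl replicate 3) to 0.06. CSRP1 was not called without shControl replicate 2 or 3, shARNT replicate 1 or 3 (shARNT comparison), or shBMAL1 replicate 1 or 2 (shBMAL1 comparison). Same-numbered libraries of different groups had correlations of deviations from -0.173 to 0.277, and differently numbered ones from -0.228 to 0.339. These ranges gave no sign of pairing by number. With 3 libraries per group they cannot exclude it. A replicate block gave 12683, 9832 and 12592 calls, and family sums of -1.57, -0.41 and -1.16. The call of TSC22D3 in shBMAL1 (0.19) was lost with the block, the DESeq2 test, no filter and the minimum fold, and the block ended no call of a member. Members with a few reads are limited by depth.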
